A study of Homo sapiens with 4 samples.

Results

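The genes described here make up the clotting cascade, the system that dissolves clots, and complement, in HepG2 cells given isoginkgetin. A list of 58 human genes was matched by symbol to the authors' deposited table of their comparison, and 34 of the 58 had a row among the 8727 genes of that table. The 8727 genes with a row are 43.6% of all genes tested, 22.4% being higher and 21.1% lower. HepG2 is an established line of human liver tumour cells, and the labels call its source a hepatoblastoma. Polyadenylated RNA was sequenced from 2 libraries of cells given the solvent DMSO and 2 libraries of cells given isoginkgetin, a biflavonoid of plants that is known to block pre-mRNA splicing, at 20 µM for 24 h. The comparison asks which transcripts differ after the treatment. No other agent or genetic change is named for either group, and the labels do not say whether replicate libraries stem from separate cultures, so the p-values reflect library-to-library spread that may be technical only.

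Most of these proteins are made by hepatocytes and secreted into plasma as inactive precursors. Clotting runs through a chain of serine proteases and their cofactors to thrombin, which turns fibrinogen into fibrin, while serpins, the protein C system and tissue factor pathway inhibitor hold it back and plasmin dissolves the clot. Complement is a second protease cascade that marks targets through C3 and C4 and ends in a membrane pore built from C5 to C9, with soluble and membrane-bound regulators that protect the host's own cells.

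For each gene the authors' deposited table holds the average of its normalized counts (the mean normalized count), the log2 fold change between the groups, the standard error of that change (SE), and p-values before and after adjustment. Only rows with an adjusted p below 0.05 are present. Single libraries have no values of their own here, so neither their spread nor their total counts can be shown. Which group stands in the numerator is not stated by the header. A negative log2 fold change is called lower and a positive one higher, taking isoginkgetin over DMSO as the order, and under the opposite order every direction given here would be turned. The 24 listed genes with no row have no value, and whether they were tested, or how they moved, is not known. From the p-values before and after adjustment, the number of genes tested works out at 20024.

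The 3 chains of fibrinogen differed in how far they were lowered, and the stretches of DNA just upstream of their genes are shown because the genes lie side by side on chromosome 4 and their products are assembled into one protein. The sequences are 250 bases upstream of the annotated start, 5′ to 3′ on the gene's own strand, from RefSeq on GRCh38.p14. Capitals mark CTGGGA, the core of the interleukin-6 response element described for acute-phase genes, on either strand. FGA lies at chr4:154590743-154590992 (minus strand), FGB at chr4:154562761-154563010 (plus strand, the downstream one of 2 listed starts) and FGG at chr4:154612657-154612906 (minus strand).
FGA: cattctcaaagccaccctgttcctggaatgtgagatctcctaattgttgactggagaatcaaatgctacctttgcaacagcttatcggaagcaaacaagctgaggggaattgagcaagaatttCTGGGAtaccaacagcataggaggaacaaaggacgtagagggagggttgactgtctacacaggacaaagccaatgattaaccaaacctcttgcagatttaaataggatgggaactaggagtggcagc
FGB: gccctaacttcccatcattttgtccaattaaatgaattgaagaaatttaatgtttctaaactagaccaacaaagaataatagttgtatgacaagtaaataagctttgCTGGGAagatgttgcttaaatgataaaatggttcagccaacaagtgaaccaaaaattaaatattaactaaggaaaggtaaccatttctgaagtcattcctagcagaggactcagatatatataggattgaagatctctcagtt
FGG: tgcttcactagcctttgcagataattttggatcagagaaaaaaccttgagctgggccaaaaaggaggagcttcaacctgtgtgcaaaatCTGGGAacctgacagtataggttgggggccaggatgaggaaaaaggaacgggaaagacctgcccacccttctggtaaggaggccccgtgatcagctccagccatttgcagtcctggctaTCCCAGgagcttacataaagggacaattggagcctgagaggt

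All 3 windows hold CTGGGA, beginning 127 bases upstream of the start in FGA, 143 in FGB and 161 in FGG, and FGG has a further copy on the other strand, 42 bases upstream. Of 35116 annotated promoter windows of the same length, 28.7% hold CTGGGA on either strand. Among the 24 lower genes of the list with a window, 9 (37.5%) hold CTGGGA, as do the 3 higher genes with a window and 7 (36.8%) of the 19 listed genes without a row. One more motif, CAAAGTC, the core of the site of the liver factor HNF4, is in 2.91% of all windows, in 1 of the 24 and in 3 of the 19. The letters CAAAGTC are not in the printed windows, no motif matches overlap there, and a match describes the letters only.

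FGA, which encodes the chain from which thrombin releases fibrinopeptide A, stood at −1.64 on the log2 scale (SE 0.05, adjusted p 5.49e-219) per the authors' deposited table and had the 11th smallest p-value of all its genes. FGB, the chain that carries fibrinopeptide B, was at −0.83 (SE 0.08, adjusted p 1.22e-22) per the authors' deposited table. FGG, the chain whose ends are cross-linked in a stabilised clot, was at −0.13 (SE 0.05, adjusted p 0.0200), a small decrease close to the threshold of the authors' deposited table. The log2 fold change of FGA minus that of FGG was −1.51 (95% interval −1.65 to −1.36). FGA also lay below FGB, by a difference of −0.81 (95% interval −1.004 to −0.62), and FGB below FGG, by −0.69 (−0.88 to −0.50). These intervals take the SEs of the genes as independent, and none of them includes 0.

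Where the mean normalized count reaches 1000, the level in each group can be approximated from the mean and the fold change. For FGA the authors' deposited table implies a mean normalized count of 15396 with DMSO and 4939 with isoginkgetin, or 32.1% of the DMSO level. For FGB the implied values are 2407 and 1356, and for FGG 10654 and 9705. Divided by the exon length in GENCODE release 29, the implied level of FGA was 3892 per kb with DMSO, above the 2960 of FGG, and 1248 per kb with isoginkgetin, below the 2696 of FGG. FGB had the lowest level per kb of the 3 in both groups, at 889 and 501. The authors' annotation is not given in the sources used here, so these lengths may differ from the ones behind the counts.

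**Figure D1:**
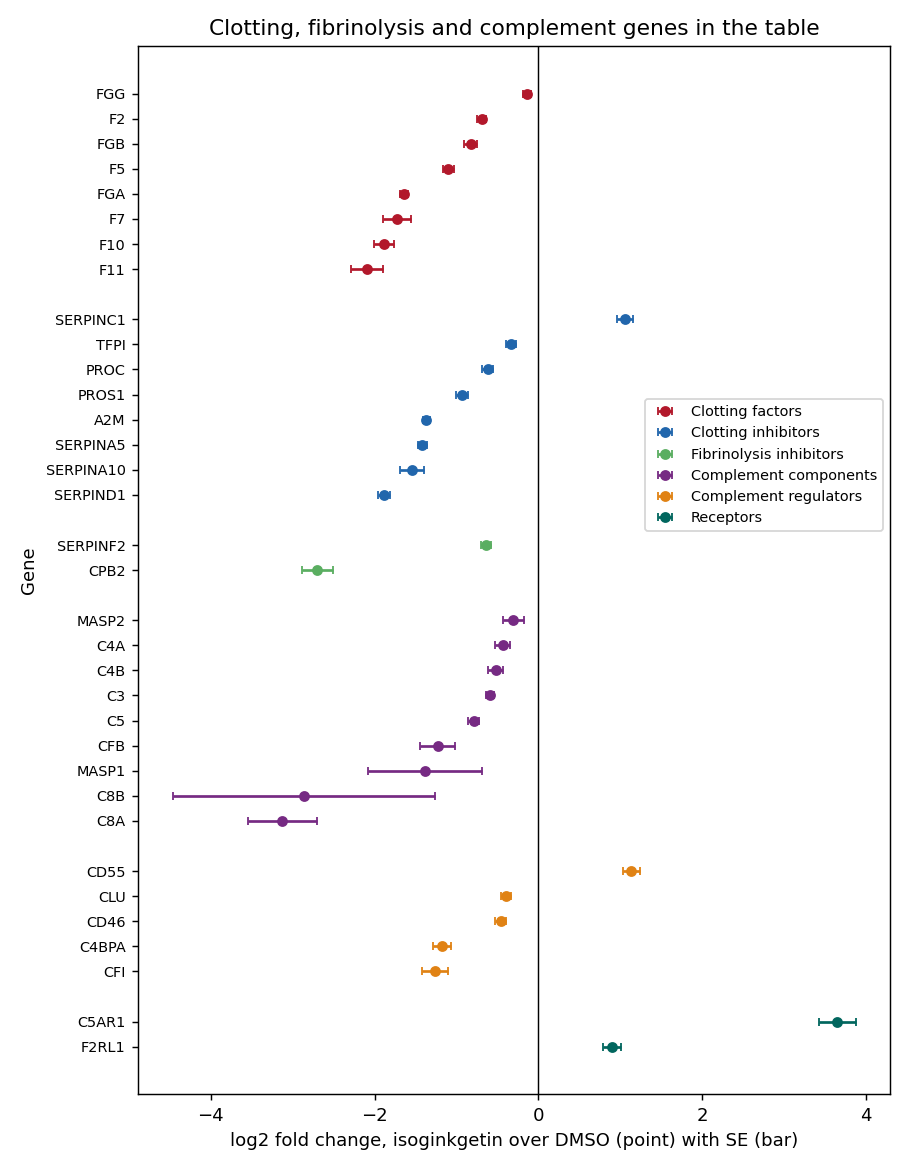
Log2 fold change, isoginkgetin over DMSO (x axis), of the 34 genes in the authors' deposited table (y axis), grouped by role; points are the authors' estimates and bars their SE. Of the 34, 30 lie left of 0, and the 4 on the right are SERPINC1, CD55, F2RL1 and C5AR1.

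The other clotting factors with a value were all lower. Of 15 listed clotting factors, 8 were in the authors' deposited table, all 8 lower, and their median log2 fold change was −1.37, with 5 of them at least 2-fold lower. Over all genes tested, 21.1% were lower and 22.4% higher, and 7.43% were at least 2-fold lower. F2, the precursor of thrombin, was at −0.69 (SE 0.05) per the authors' deposited table, the smallest decrease among the proteases of this class. F7, the protease that tissue factor activates, was at −1.73 (SE 0.17), and F10, the protease that makes thrombin, at −1.88 (SE 0.12) per the authors' deposited table. F7 and F10 are neighbours on chromosome 13 and differed by only 0.16 (95% interval −0.26 to 0.57), an interval that includes 0. F11, a protease that amplifies clotting and of whose exon bases 10.5% overlap an antisense gene in GENCODE release 29, was the lowest factor at −2.09 (SE 0.20), which is 23.5% of the DMSO level in the authors' deposited table. F5, the cofactor of factor Xa, was at −1.10 (SE 0.07), with an implied mean normalized count of 4575 with DMSO and 2138 with isoginkgetin from the authors' deposited table. Tissue factor (F3), factors F8, F9, F12 and F13B, and the contact-system genes KNG1 and KLKB1 have no value here.

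Factors F2, F7, F9 and F10 share with PROC, PROS1 and PROZ a domain that needs vitamin K for its carboxylation. Of these 7 genes, 5 were in the authors' deposited table and all 5 were lower, from −1.88 to −0.62. Lower were thus 71.4%, beside 21.1% of all genes tested. GGCX, the carboxylase itself, was at −0.70 (SE 0.09) per the authors' deposited table, and VKORC1, which regenerates the vitamin, was at 0.68 (SE 0.20). LMAN1, a cargo receptor that carries factors V and VIII out of the endoplasmic reticulum, was at 0.73 (SE 0.05) per the authors' deposited table. HPN, the liver surface protease hepsin, known to cleave factor VII, was at −1.26 (SE 0.10) there. Of the 7 listed genes for processing and secretion, all 7 were in the authors' deposited table, 4 higher and 3 lower. Higher were 57.1% of the 7 (beside 22.4% of all genes tested) and lower 42.9% (beside 21.1%).

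Inhibitors of clotting were lowered alongside the factors, with 1 exception. Of 9 listed inhibitors, 8 were in the authors' deposited table, 7 lower and 1 higher, and their median log2 fold change was −1.15. Lower were 77.8% of the 9 (beside 21.1% of all genes tested) and higher 11.1% (beside 22.4%). The exception was SERPINC1, antithrombin, the main plasma inhibitor of thrombin and factor Xa, at 1.06 (SE 0.10, adjusted p 1.28e-26), with an implied mean normalized count of 832 with DMSO and 1729 with isoginkgetin from the authors' deposited table. SERPIND1, heparin cofactor II, which also inhibits thrombin, was at −1.88 (SE 0.07, adjusted p 5.36e-143), from an implied 5043 to 1369 in the authors' deposited table. The difference between these inhibitors was 2.94 on the log2 scale (95% interval 2.70 to 3.18). SERPIND1 lies within an intron of PI4KA on the opposite strand and shares no exon bases with it in GENCODE release 29, and PI4KA was at −0.31 in the authors' deposited table.

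The protein C system was lower in each of its 3 listed parts, beside 21.1% lower over all genes tested. SERPINA5, the protein C inhibitor, was at −1.42 (SE 0.06) per the authors' deposited table. PROS1, the cofactor protein S, was at −0.93 (SE 0.08), and PROC, the anticoagulant protease itself, was less changed at −0.62 (SE 0.07) per the authors' deposited table. PROC lay above PROS1 by 0.31 (95% interval 0.11 to 0.51). SERPINA10, which inhibits factor Xa together with protein Z, was at −1.54 (SE 0.14) per the authors' deposited table, while PROZ, protein Z, has no value here. TFPI, which blocks the start of clotting by tissue factor, was the least lowered inhibitor at −0.33 (SE 0.06), or 79.3% of the DMSO level in the authors' deposited table. A2M, a trap for proteases of many kinds, had the highest mean normalized count of the list, 50081, and was at −1.37 (SE 0.04, adjusted p 4.78e-218) per the authors' deposited table. Its implied level went from 72187 with DMSO to 27976 with isoginkgetin, and its p-value was the 12th smallest of the authors' deposited table, next to that of FGA. A2M was also the highest of the list per kb of exon, at 7845, above F2 at 3297 and C3 at 2974.

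**Figure D2:**
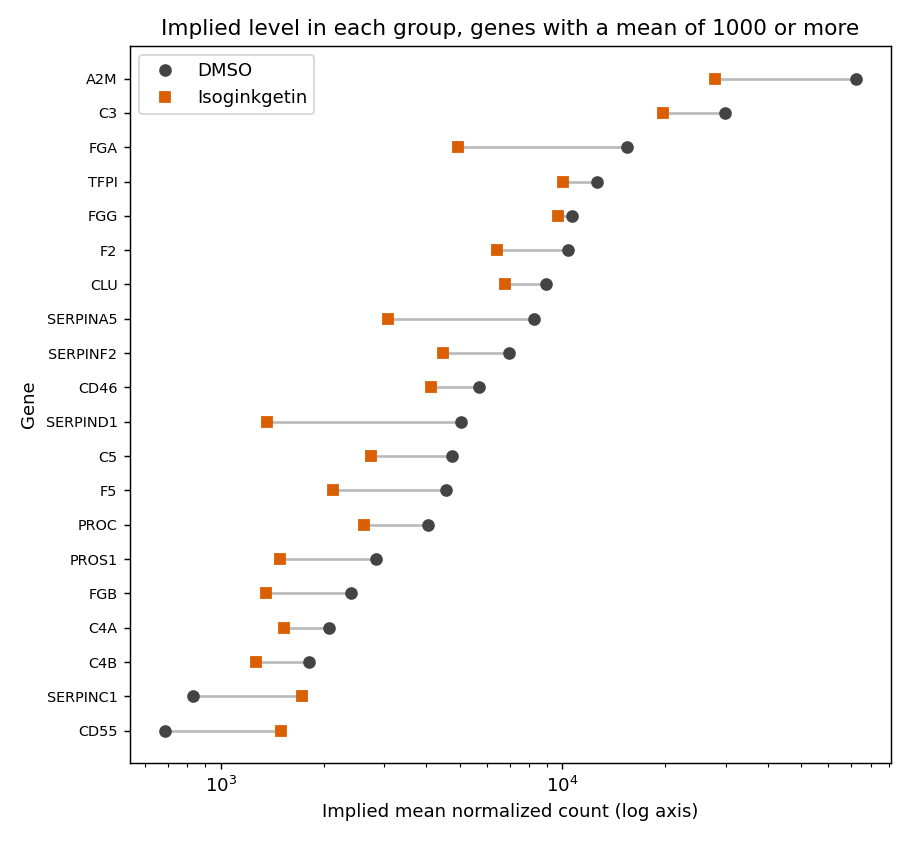
Mean normalized count implied for each group (x axis, log scale) by the authors' mean and fold change, for the 20 listed genes with a mean of at least 1000 (y axis); circles are DMSO, squares isoginkgetin, and no error can be drawn. SERPINC1 and CD55 are the pair of genes with the square to the right of the circle, and FGA, SERPINA5 and SERPIND1 show wide gaps in the other direction.

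Of the listed genes of fibrinolysis, 2 inhibitors had values and both were lower, beside 21.1% lower over all genes tested. CPB2, a carboxypeptidase that protects fibrin from plasmin, was at −2.70 (SE 0.19, adjusted p 4.31e-44), or 15.4% of the DMSO level, in the authors' deposited table. It stood 109th from the lowest of all genes in the table. SERPINF2, the plasmin inhibitor antiplasmin, was at −0.64 (SE 0.06) per the authors' deposited table. The activators PLG, PLAT and PLAU, the receptor PLAUR, and HRG have no value here. Of the other genes of fibrinolysis, THBS1, a matrix protein, was at −0.55 (SE 0.07) per the authors' deposited table. The plasminogen-binding pair ANXA2 and S100A10 was at −1.002 (SE 0.09) and −0.37 (SE 0.11) per the authors' deposited table.

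Complement components with a value were all lower, mostly by less than 2-fold where they were abundant. Of 16 listed components, 9 were in the authors' deposited table, all 9 lower, and their median log2 fold change was −0.79, with 4 at least 2-fold lower. Of the 16, 56.2% were lower, beside 21.1% of all genes tested. At least 2-fold lower were 7.43% of all genes tested. C3, the central component, was at −0.59 (SE 0.05), from an implied mean normalized count of 29797 with DMSO to 19730 with isoginkgetin in the authors' deposited table. C5, which starts the membrane pore, was at −0.79 (SE 0.06) per the authors' deposited table and lay below C3, since C3 exceeded C5 by 0.19 (95% interval 0.03 to 0.35). C4A and C4B, neighbouring copies of the component C4, were at −0.44 (SE 0.09) and −0.52 (SE 0.09) per the authors' deposited table. Their proteins are nearly identical, reads can fall to either gene, and the difference of 0.08 (95% interval −0.16 to 0.33) includes 0. CFB, the protease of the alternative pathway, was at −1.23 (SE 0.21) per the authors' deposited table, and 45.0% of its exon bases in GENCODE release 29 are shared with a read-through gene model.

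The C8 genes C8A and C8B, chains of a pore component, had the lowest values of the class, both at low levels. C8A was at −3.13 (SE 0.42, adjusted p 1.25e-13), with a mean normalized count of only 80.5 in the authors' deposited table. Its neighbour C8B was at −2.86 with a wide SE of 1.60 and a mean normalized count of 8.53 in the authors' deposited table, so that the size of its decrease is poorly known. The lectin pathway proteases were lower too, MASP1 at −1.38 (SE 0.69) with a mean normalized count of 26.4, and MASP2 at −0.30 (SE 0.13) per the authors' deposited table. MASP2, at an adjusted p of 0.0341, was the nearest of the listed genes to the threshold. The lectin COLEC11, another gene of that pathway, was at −0.66 (SE 0.24) per the authors' deposited table. C1R, C1S, C2, C6, C8G, C9 and MBL2 have no value here.

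Complement regulators went both ways. Of 8 listed regulators, 5 were in the authors' deposited table, 4 lower and 1 higher. Lower were 50.0% of the 8 (beside 21.1% of all genes tested) and higher 12.5% (beside 22.4%). CD55, a membrane protein that takes apart the convertases, was at 1.13 (SE 0.10, adjusted p 2.44e-27), from an implied mean normalized count of 686 with DMSO to 1506 with isoginkgetin in the authors' deposited table. CD46, the membrane cofactor for cleavage of C3b and C4b, was at −0.46 (SE 0.07) per the authors' deposited table, and the difference between these surface regulators was 1.59 (95% interval 1.35 to 1.83). The secreted regulators were lower: CFI, the protease that cleaves C3b and C4b, at −1.26 (SE 0.16), C4BPA, the main chain of the C4b-binding protein, at −1.18 (SE 0.11), and CLU, the chaperone clusterin, at −0.39 (SE 0.06) per the authors' deposited table. C4BPA and CD55 are neighbours on chromosome 1 and moved in opposite directions. In GENCODE release 29, 32.0% of the exon bases of CFI are shared with another gene model on the same strand. Whether the authors' annotation holds that model is not known, and if it does, reads there cannot be assigned to one of them. SERPING1, C4BPB and CD59 have no value here. Among other regulators, C1RL, a protease related to C1R, was at −1.73 (SE 0.12), C1QBP at 0.55 (SE 0.06) and CPN2, a subunit of carboxypeptidase N, at 0.33 (SE 0.09) per the authors' deposited table.

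Receptors that read the cascades were the class in which the listed genes with a value were higher. Higher were 66.7% of the 3 listed receptors, beside 22.4% of all genes tested. C5AR1, the receptor for the C5a fragment, had the largest change of the whole list at 3.65 (SE 0.23, adjusted p 1.04e-55), a 12.6-fold rise at a mean normalized count of 306 in the authors' deposited table. F2RL1, the protease-activated receptor PAR2, was at 0.90 (SE 0.11, adjusted p 1.92e-15) per the authors' deposited table. Its neighbour F2R, the thrombin receptor PAR1, has no value here. Of 13 other receptors on the wider list, 1 (7.69%, beside 43.6% of all genes tested) was in the authors' deposited table. It was the integrin chain ITGB2 of complement receptors, at −1.49 (SE 0.13). Whether the 12 without a row were tested is not known.

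**Figure D3:**
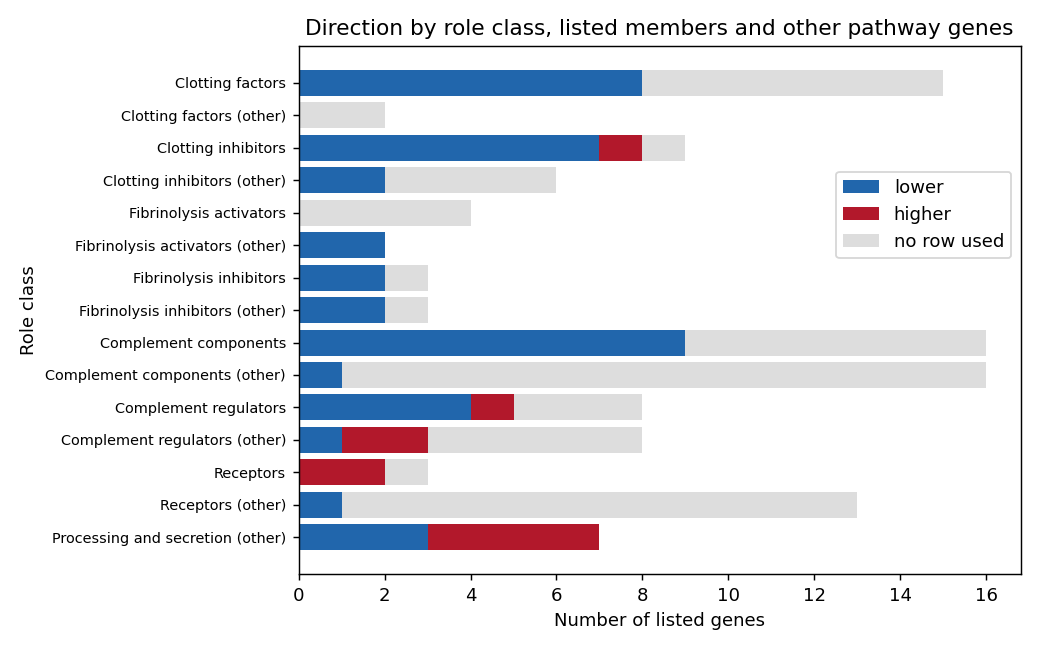
Number of genes (x axis) lower, higher or with no row used, by role class (y axis), for the 58 listed genes and for 57 other genes of the same pathways (marked other). Clotting factors and complement components show 8 and 9 lower and 0 higher, and the other complement components and receptors are mostly without a row.

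As a whole, 34 of the 58 genes (58.6%) passed the authors' threshold, beside 43.6% of all 20024 genes tested. Lower were 30 (51.7%, beside 21.1%), and higher were 4 (6.9%, beside 22.4%). At 2-fold or more, 16 were lower (27.6%, beside 7.43%) and 3 were higher, beside 6.26% of all genes tested. The median log2 fold change of the 34 was −0.88, while that of all 8727 genes of the authors' deposited table was 0.21. The median of the mean normalized counts was 1674 for the 34 and 741 for the 8727, and the shares are not matched for level. The list was drawn up with results of these data known, so these shares describe it and do not test it. A wider list of 57 other genes of the same pathways includes many genes of blood cells and endothelium. Of these, 18 had a row in the authors' deposited table, and 12 of the 57 (21.1%) were lower and 6 (10.5%) higher. For lower genes this share was that of all genes tested, but whether the 39 genes without a row were tested is not known. Among those 18 genes APOH, a plasma phospholipid-binding protein, was at −0.71 (SE 0.05) per the authors' deposited table. SERPINA1, antitrypsin, was at −0.69 with an SE of 0.29, which is 6.06 times the median SE of the 200 genes nearest to it in level, so its value is less certain than its mean normalized count of 53061 would give. For the listed genes the same ratio of SEs ran from 0.847 to 1.23.

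**Figure D4:**
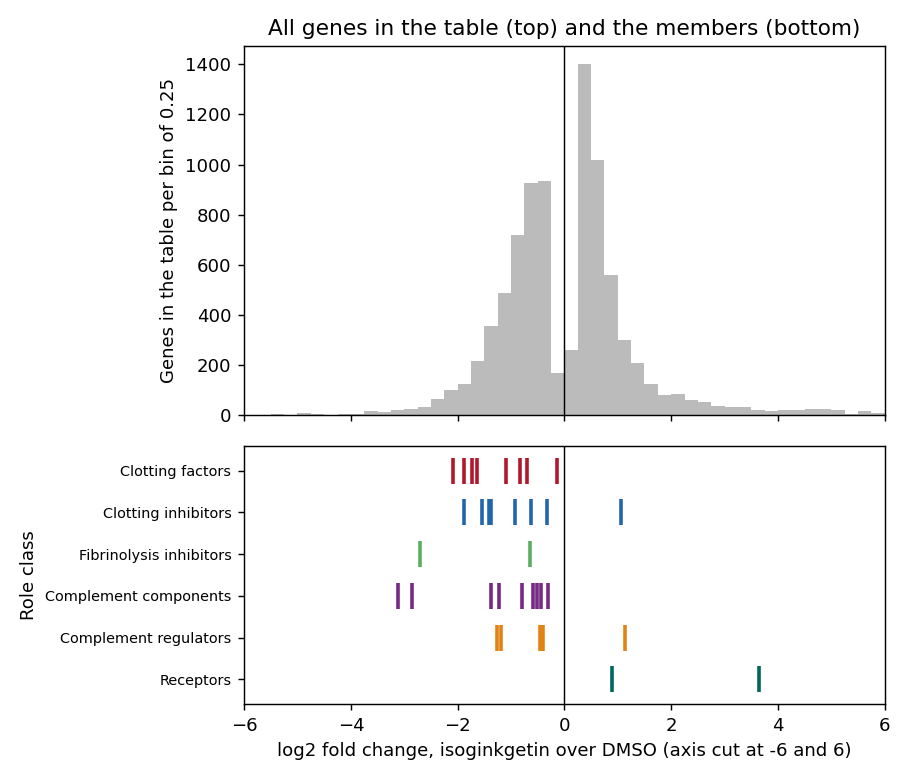
Log2 fold change, isoginkgetin over DMSO (x axis, shown from −6 to 6), of all genes in the authors' deposited table (top, genes per bin of 0.25, 60 genes beyond the axis) and of the 34 listed genes (bottom, 1 mark per gene, by role class). The table has genes on both sides of 0, and the marks of clotting factors and complement components all lie below 0.

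In RefSeq, 6 pairs of listed genes with values follow each other with no other protein-coding gene between them. C8A with C8B, FGB with FGA, FGA with FGG, F7 with F10, and C4A with C4B shared a direction (5 pairs), while C4BPA and CD55 did not. Since 30 of the 34 genes were lower, most pairs of them share a direction, neighbours or not. FGA is in both fibrinogen pairs, and reads can fall to either of C4A and C4B. Across the 34 genes the Spearman correlation of the log2 fold change with the largest number of coding-transcript exons was −0.061, and across 7301 protein-coding genes of the authors' deposited table it was −0.16. These correlations run across genes of the same libraries and are given as descriptions.

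Markers of the liver cell moved the same way. Of 14 hepatocyte markers, 11 were in the authors' deposited table and all 11 were lower, among them AFP, the fetal albumin-like protein, at −1.04 (SE 0.05), and the transcription factor HNF4A at −0.37 (SE 0.06). Over all genes tested, 43.6% had a row, 21.1% being lower and 22.4% higher. ALB has no value here. Of 32 markers of other cell types (macrophage, endothelial, stellate or fibroblast, platelet, bile duct), 10 were in the authors' deposited table, 8 lower and 2 higher, and their part in the results was not tested. All 4 samples are labelled as HepG2 cells, with no other cell type named. In bulk RNA, a change in all of these cells and a change in some of them cannot be told apart.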

How the data were processed

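Per the labels' protocols, libraries of polyadenylated RNA were made with a kit that keeps no strand information. Tools named in the submitters' processing notes are featureCounts and STAR 2.7.0, and the builds are mm10 and hg19, none with a role. The authors deposited 1 table of their comparison. Per the file headers, it has columns for the mean normalized count, read as a signal, the log2 fold change, the SE in log2 units, the p-value and the adjusted p-value. The test itself is not given in the sources used here, nor is its version. The number of genes tested was recovered from the adjusted p, rank and p, and this step returned the right number on simulated data. The planned tests on counts could not be run, as the table holds no value per library, and the authors' results were used.

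The 58 genes, their roles and the wider list were chosen with earlier results of these data known. For the wider list, the values of its other genes were not at hand. No set test was run. All listed genes with a value are named; of the other pathway genes, up to 4 per role class with the largest absolute change; some listed items are counted but not reported here. Fold changes over their SE were smaller than the normal deviate of the p-value, with a median ratio of 0.994 for the 20 listed genes at a mean of at least 1000, 0.979 for the 14 below and 0.624 at the lowest (C8B). Fold changes of low genes may thus be understated. Implied group levels solve the mean and the fold change for groups of equal size. Depth per library is unknown. Python 3.11.15, pandas 2.3.3 and scipy 1.17.1 were used.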

Additional observations from a re-analysis of the deposited data

How the results depend on the processing

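Alternatives were an adjusted p under 0.001, Bonferroni, a mean normalized count of at least 100, a change of at least 2-fold, centring on the median of the table (0.21), leaving out A2M, HRG and SERPING1, and, for the 58 genes, leaving out C4A and C4B. HRG and SERPING1 have no value here, so leaving out these genes removed only A2M. The counts of role classes other than the clotting inhibitors could not move under that setting. Of 75 values, 58 moved by at most 1.5 times (counts) or less than the median SE of the list (medians). The medians all stayed negative, but these settings only drop genes or subtract 0.21, so a change of sign was hardly possible. At least 2-fold, 16 of the 30 lower listed genes were left, with 5 clotting factors, 4 clotting inhibitors, 1 fibrinolysis inhibitor, 4 complement components and 2 complement regulators, and 1 receptor was higher. Of the 115 genes of both lists together, 42 (36.5%, beside 21.1% of all genes tested) were lower and 10 (8.7%, beside 22.4%) higher. By 2-fold or more, 21 (18.3%, beside 7.43%) were lower and 3 higher, beside 6.26% of all genes tested. These shares include the 58 genes, which were chosen with results of these data known. The median of the 34 genes (−0.88) was −0.79 at a mean of at least 100, −1.42 at least 2-fold, −1.09 when centred and −1.01 without C4A and C4B. The median of the wider list with them (−0.69) was −0.79 at an adjusted p under 0.001, −0.81 with Bonferroni, −1.40 at least 2-fold and −0.91 when centred. The 9 lower complement components became 6 under Bonferroni, under the stricter adjusted p and at a mean of at least 100. A stricter rule removes small changes by construction. No paired analysis was possible because the table holds no value per library, and for the same reason leaving out a library and a second tool were not run. Precision followed the level, with a median SE of 0.066 for listed genes at a mean of at least 1000 and 0.18 below.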
